A study of Bos taurus with 15 samples.

Results

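Cholesterol is made from acetyl-CoA through the mevalonate pathway and taken up from lipoproteins in the blood. Both routes are under the control of SREBP2, a transcription factor held in the endoplasmic reticulum while sterols are plentiful and released to the nucleus when they run low, where it switches on genes of synthesis and uptake together. In the thymus, where T cell precursors divide and are selected, growing cells need sterol for new membrane, and immature thymocytes are a classic cell type that dies under glucocorticoids.

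The 8 genes described here are 6 enzymes of the pathway (HMGCS1, IDI1, FDPS, FDFT1, SQLE and DHCR7), the gene of SREBP2 itself (SREBF2) and INSIG1, a sterol sensor partner that keeps SREBP2 in the endoplasmic reticulum. They were picked by symbol from the gene name or description of each bovine probe, 4 by gene name and 4 (SQLE, INSIG1, IDI1 and SREBF2) by description only, out of 14731 gene symbols on the array, and 11752 of those symbols had a probe that passed the filter on dim probes. All 8 genes passed it, each through 1 probe spotted 2 times. The label of the list also names uptake, but none of the 8 is an uptake receptor.

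Thymus tissue came from Holstein cattle collected at slaughter, 7 untreated controls and 8 animals that received oral prednisolone, a glucocorticoid drug, daily for 35 days at 30 mg per head. No age or sex is given in the sources used here. Total RNA of 1 animal was hybridised to 1 single-dye Agilent array. Each array measured 42990 bovine spots for 21475 probes, of which 67.1% to 77.7% per array were well above background. Precision is limited by the number of arrays.

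Values are log2 of the processed signal relative to the 75th percentile of the same array, so that 0 is the brightness of the spot at that percentile and 1 unit is a doubling. They compare animals for 1 gene and do not rank genes by abundance. All 8 probes were well above background on 15 of 15 arrays, and no spot was saturated. The spread between animals exceeded that between spots of a probe on the same array by 1.78 times for DHCR7, the smallest ratio, up to 8.11 times for IDI1. As the tissue was profiled in bulk, fewer cells that express a gene and less RNA per cell cannot be told apart.

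Some libraries stood apart from the others. ALB, the albumin gene of liver, lay at 0.40 in prednisolone 3 and 2.41 in prednisolone 4 and at no more than -5.79 in the other 13 animals. PRM1, a protamine of maturing sperm, lay between 1.21 and 4.37 in control 1, control 4, control 6 and prednisolone 8 and at no more than -1.25 in the other 11. Some results that rest on these animals are given with and without them, and others over the 15 animals only. Thymocyte markers fitted the labelled tissue: 9 of 11 were measured, all 9 above background on every array, and no probe was matched to CD4 or RAG2. The arrays lay on 4 slides, and slide 4 held only treated animals (prednisolone 2, 4 and 7), so that its slide and the treatment cannot be told apart there. The only treated animal was prednisolone 6 on slide 1 and prednisolone 1 on slide 3, and the only control on slide 2 was control 3. A difference within a slide therefore rests on 1 animal in the smaller group.

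No difference between prednisolone and control animals passed the test for any of the 8 genes. The log2 differences, treated minus control, lay between -0.05 for FDPS and 0.25 for INSIG1, with a median of 0.06 beside -0.00044 over all probes tested. In the limma fit 0 of the 8 genes had an adjusted p under 0.05, and 0 of them had an unadjusted p under 0.05. Over the array 0 of 16068 probes (0%) were called and 1138 (7.08%) had an unadjusted p under 0.05, with the higher side at 3.98% and the lower at 3.1%, so the members' count matches that of the array as a whole. The smallest adjusted p on the array was 0.236.

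HMGCS1 makes HMG-CoA, an early intermediate of the mevalonate pathway. Its level ranged from 0.01 to 0.73 in controls with a median of 0.36, and from 0 to 0.70 in treated animals with a median of 0.48. The groups lay on top of each other: the lowest values belonged to prednisolone 7, control 4 and prednisolone 8 and the highest to control 1 and prednisolone 4. The difference was 0.02 ± 0.14 (SE, n = 7 and 8; 95% interval -0.28 to 0.31; limma adjusted p = 0.986).

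IDI1 converts isopentenyl diphosphate to its isomer, which starts the joining of isoprene units. Controls ranged from -0.81 to -0.23 (median -0.42) and treated animals from -1.06 to 0.14 (median -0.39). Prednisolone 8 was the lowest of all animals, and prednisolone 4, 2 and 1 lay above every control. The difference of 0.10 ± 0.16 (SE; 95% interval -0.23 to 0.43) did not pass in limma, with an adjusted p of 0.928.

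FDPS joins these units into farnesyl diphosphate, the branch point towards sterols, dolichol and prenylated proteins. Its control values lay between 2.48 and 2.84 (median 2.73) and its treated values between 2.13 and 2.94 (median 2.75). The treated animals spread on both sides of the controls: 3 lay above all of them and 3 below all of them, with SDs of 0.29 (n = 8) and 0.14 (n = 7). The difference in mean was -0.05 ± 0.12 (SE; 95% interval -0.30 to 0.20; limma adjusted p = 0.955).

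FDFT1, squalene synthase, makes the first molecule that can only become sterol. It lay between 1.73 and 2.19 in controls (median 1.85) and between 1.63 and 2.41 in treated animals (median 1.96). Prednisolone 4 alone was above all controls and prednisolone 8 alone below them. The difference was 0.06 ± 0.10 (SE; 95% interval -0.16 to 0.28; limma adjusted p = 0.936).

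SQLE oxidises squalene, the first oxygen-requiring step towards sterols. Controls ranged from 1.20 to 2.04 (median 1.66) and treated animals from 1.03 to 2.30 (median 1.77). The 3 animals above every control, at 2.26, 2.28 and 2.30, were the 3 of slide 4, whose mean was 2.28 against 1.47 to 1.72 on the other slides. The difference over all animals was 0.17 ± 0.19 (SE; 95% interval -0.23 to 0.58; limma adjusted p = 0.890), and it was -0.10 without slide 4. Within slides 1, 2 and 3 it was 0.01, -0.14 and 0.12, each resting on 1 animal in the smaller group.

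DHCR7 carries out the last reduction to cholesterol and also consumes the precursor of vitamin D. It varied least of the 8 genes, over a 1.44-fold range, with controls between 1.34 and 1.75 (median 1.66) and treated animals between 1.46 and 1.87 (median 1.52). Its order of animals was unlike that of the other enzymes: prednisolone 8, the lowest animal for 5 of the other genes, was the highest for DHCR7. The difference was -0.04 ± 0.08 (SE; 95% interval -0.21 to 0.12; limma adjusted p = 0.941).

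SREBF2, the regulator, ranged from 1.91 to 2.39 in controls (median 2.20) and from 1.83 to 2.67 in treated animals (median 2.24). Prednisolone 4 and 3 lay above every control and prednisolone 8 below them all. The difference was 0.06 ± 0.12 (SE; 95% interval -0.19 to 0.31; limma adjusted p = 0.948).

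INSIG1, the inhibitor and itself a target of SREBP2, varied most, over a 3.00-fold range. Controls lay between -1.34 and -0.06 (median -0.17) and treated animals between -0.99 and 0.25 (median -0.13). Control 4 and prednisolone 8 were far below the rest, and prednisolone 4, 1 and 2 lay above every control. Its difference was the largest of the 8 at 0.25 ± 0.21 (SE; 95% interval -0.19 to 0.68; limma adjusted p = 0.841). Within slides 1, 2 and 3 it was 0.06, -0.31 and 0.65, each resting on 1 animal in the smaller group.

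**Figure D1:**
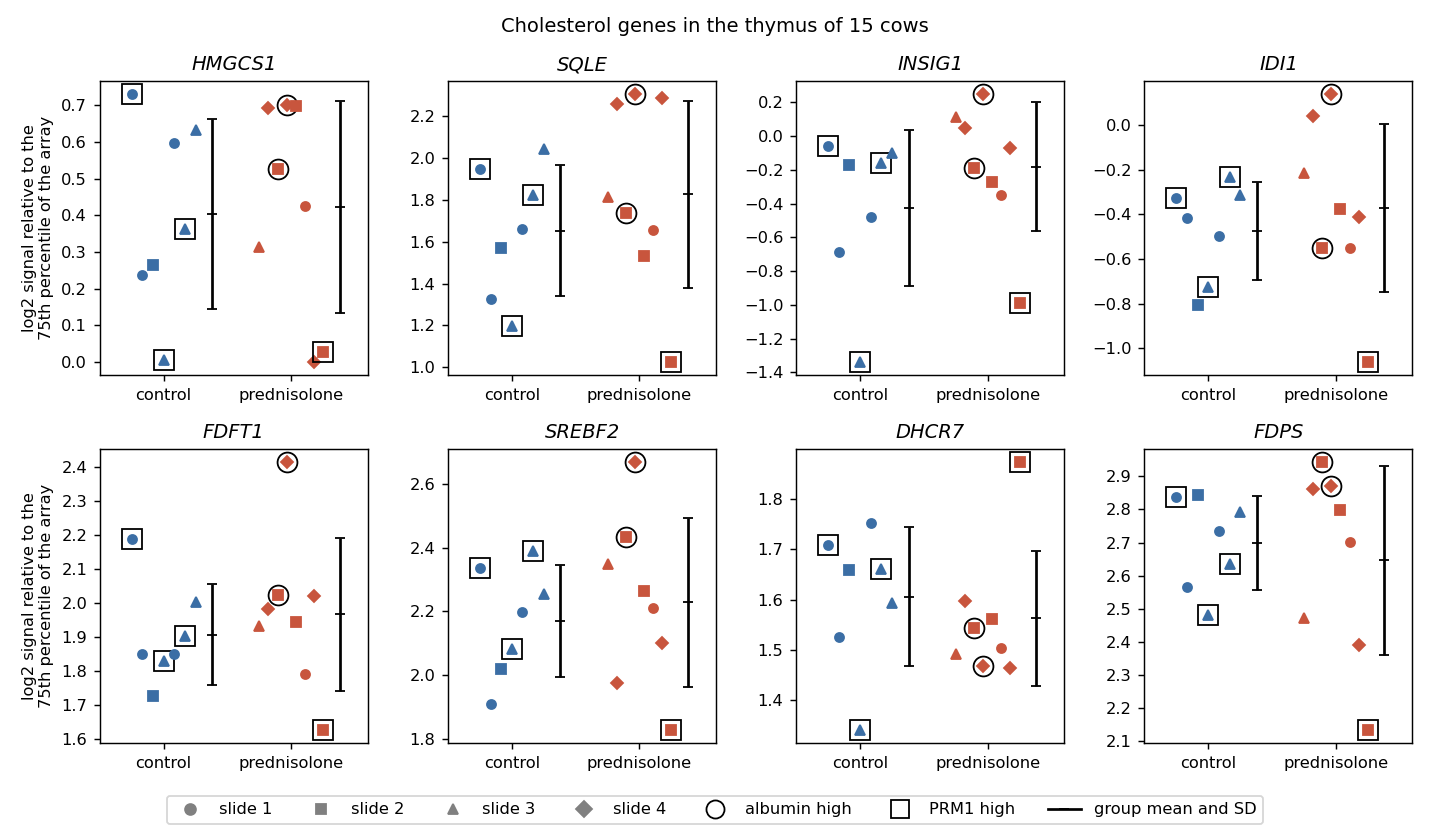
Level of each of the 8 genes in every animal, as log2 signal relative to the 75th percentile of the array, for 7 control and 8 prednisolone animals. Point shapes mark the 4 slides, open circles and squares the animals with high ALB or PRM1, and bars the group mean and SD. The groups overlap for all 8 genes, and the SQLE values of slide 4 lie above all controls.

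As folds, the intervals of the fit without slide ran from 0.865 to 1.09 of the control level for DHCR7, the narrowest, and from 0.875 to 1.61 for INSIG1, the widest. Slides took different shares of the spread of each gene, from 4.74% for FDPS and 6.94% for SREBF2 to 51.2% for IDI1 and 58.3% for SQLE. With slide as a fixed block the differences lay between -0.13 (FDPS) and 0.13 (INSIG1), and their median over the 8 genes was 0.0059. The SE of INSIG1 was then 0.27 in place of 0.21. Blocking called 0 of 16068 probes (0%) in limma and left 1537 (9.57%) with an unadjusted p under 0.05. No gene of the 8 separated the groups, against 18 of all probes tested (0.112%).

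**Figure D2:**
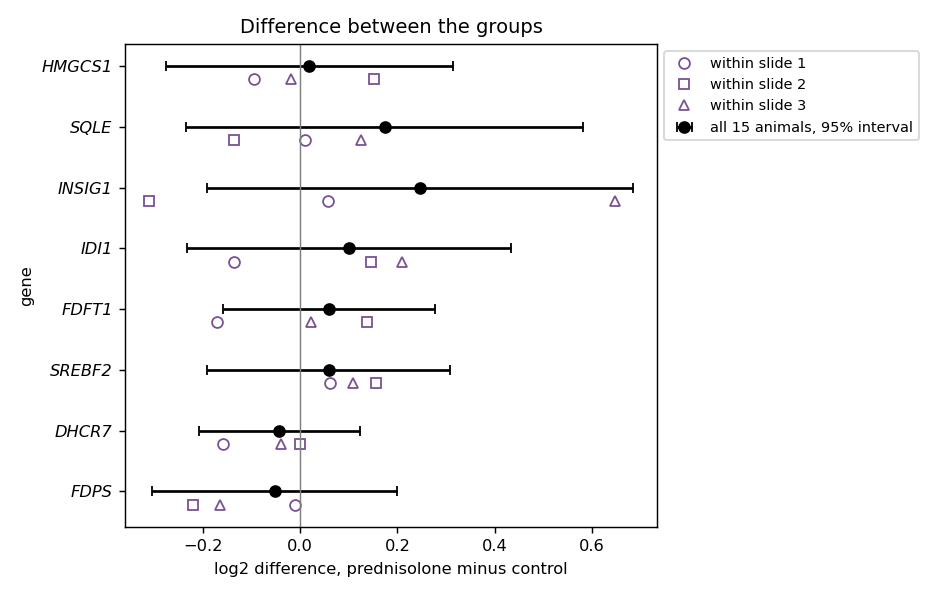
Difference in log2 level, prednisolone minus control, for each gene. Filled points with bars are the value over 15 animals with its 95% interval. Open symbols are the differences within slides 1, 2 and 3, each with 1 animal in the smaller group. Every interval spans 0, from the narrowest (DHCR7, -0.21 to 0.12) to the widest (INSIG1, -0.19 to 0.68).

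What set the animals apart was shared by most of the genes. Control 1 and control 7 were above the mean for 8 of 8 genes, and control 4 was below it for 8 of 8. Prednisolone 4 was among the 3 highest animals for 7 of 8 genes and prednisolone 8 among the 3 lowest for 7 of 8, with DHCR7 the exception in each. The mean standardised value of the 8 genes ran from -1.27 to 0.78 in controls (median 0.11) and from -1.32 to 1.28 in treated animals (median 0.12). The highest and the lowest animal were both treated (prednisolone 4 and 8), with control 4 next to the lowest.

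Over 15 animals the 28 pairs among the 8 genes had a median Pearson's r of 0.56, and 22 of them were positive. By a two-sided permutation test adjusted over the 28 pairs, 13 passed with Pearson's r and 8 with Spearman's rho. These tests describe how firmly the pairs hold in these animals. They are not independent evidence that the genes belong together, since the genes were grouped with earlier results of these data known. The 21 pairs without DHCR7, a division made after the values were seen, had r between 0.48 and 0.86, and all 13 that passed were among them.

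SQLE and INSIG1 were the closest pair, with r = 0.86 (adjusted permutation p = 0.00056) and rho = 0.88 (adjusted permutation p = 0.00084). They stayed close within controls (r = 0.87) and within treated animals (r = 0.88). Without prednisolone 4 and 8, the 2 animals farthest from the median of SQLE, r was 0.79. With slide and group means removed their r was 0.92.

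HMGCS1 and FDPS followed with r = 0.82 (adjusted permutation p = 0.0028) and rho = 0.75 (adjusted permutation p = 0.011). Without prednisolone 7 and control 4, the 2 animals farthest from the median of HMGCS1, r was 0.79. SQLE and IDI1 had r = 0.81 (adjusted permutation p = 0.0036) and rho = 0.77 (adjusted permutation p = 0.0090), with 0.65 left without prednisolone 4 and 8. Other pairs leaned on those extremes. IDI1 and SREBF2 fell from r = 0.59 (adjusted permutation p = 0.047; rho = 0.51, adjusted permutation p = 0.11) to 0.13 without prednisolone 4 and 8, so that over all animals their relation no longer held without these 2. Within controls their r was 0.65, and with slide and group means removed over 15 animals it was also 0.65.

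Apart from HMGCS1, FDPS was tied less firmly to the other genes. Its r with IDI1, SQLE, INSIG1, FDFT1 and SREBF2 lay between 0.48 and 0.56, and no pair of these passed. Each dropped to between 0.03 and 0.21 without the 2 animals farthest from the median of the other gene, not of FDPS. Those 2 were prednisolone 8 and prednisolone 4, or prednisolone 8 and control 4 for INSIG1. The pair with HMGCS1 kept prednisolone 8, so its value without 2 animals is not on the same footing. With slide and group means removed over 15 animals they lay between 0.62 and 0.77, and within controls FDPS had r = 0.85 with INSIG1, 0.74 with SQLE and 0.10 with IDI1.

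Removing slide and group means did not loosen the pattern. The 21 pairs without DHCR7 then had r between 0.55 and 0.92, with a median of 0.67 beside 0.59 before. Within the 7 controls the median over the 28 pairs was 0.67 and all 28 were positive, and within the 8 treated animals it was 0.57 with 21 positive. Without slide 4 the median was 0.66.

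**Figure D3:**
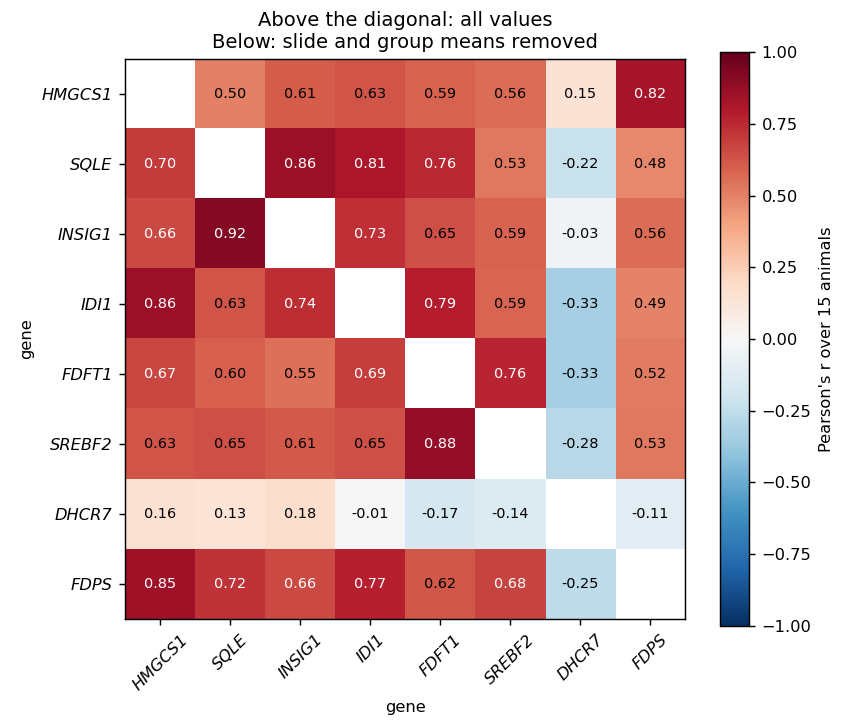
Pearson's r between the 8 genes over 15 animals, from the values as they stand above the diagonal and with slide and group means removed below it. Colour runs from blue (-1) to red (1). All pairs without DHCR7 lie at 0.48 or more above the diagonal and at 0.55 or more below it, while those with DHCR7 lie between -0.33 and 0.18 over both.

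The pattern depended on which animals were included. Without prednisolone 3 and 4, the animals with liver transcripts, the median r was 0.51 and 6 pairs passed instead of 13. Without the 4 animals with protamine transcripts it was 0.35 and 0 of 28 pairs passed the permutation test, and in the 9 animals without either kind of transcript it was 0.10, with 17 of 28 pairs positive. These sets include control 4, prednisolone 4 and prednisolone 8, the animals at the ends of the range. Leaving out prednisolone 4 and 8 alone gave a median of 0.40, with 28 of 28 pairs positive and 2 that passed.

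Leaving out prednisolone 4, prednisolone 8 or control 1 singly left 6, 7 and 8 pairs, respectively. The part that RNA from other tissue has in the co-variation was not tested. Set against the mean of the other 7 genes, INSIG1 went from r = 0.82 over 15 animals to 0.46 in the 9, HMGCS1 from 0.79 to 0.59 and SREBF2 from 0.66 to 0.18. In the same way SQLE went from 0.76 to 0.38, IDI1 from 0.76 to 0.49, FDFT1 from 0.76 to 0.46 and FDPS from 0.66 to 0.26.

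Set against all probes on the array, the 8 genes were close to each other over the 15 animals. Of 15995 probes, 0.0375% followed the mean of the other 7 genes more closely than INSIG1 did. That share was 0.0563% for HMGCS1, 0.0813% for SQLE, 0.0938% for FDFT1 and 0.106% for IDI1. It was larger for FDPS (0.619%) and SREBF2 (1.07%). For DHCR7, with r = -0.20, it was 62.0%, so that over all 15 animals this enzyme stood no closer to the other 7 genes than an ordinary probe did. That share was not computed again without prednisolone 8. Without this animal 27 of the 28 pairs were positive, the lowest at -0.07. With slide and group means also removed, all 28 were positive, the lowest at 0.14. Without the 4 animals with protamine transcripts, which include prednisolone 8, DHCR7 still had r = -0.24 with the mean of the other 7 genes. In the 9 animals without liver or protamine transcripts it had r = 0.07.

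DHCR7 differed in sign between the groups. Within controls its r with the other 7 genes lay between 0.28 and 0.83, highest with INSIG1, and within treated animals between -0.85 and -0.34, lowest with INSIG1. None of the 14 values passed an exact permutation test (smallest exact p = 0.029, adjusted over the 14 to 0.096), and the difference between the groups was not tested. Without prednisolone 8 the treated animals gave -0.46 to 0.61. Over all animals but prednisolone 4 and 8, DHCR7 had r = 0.55 with the mean of the other 7 genes.

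The genes most like the 8 included further genes of sterol and lipid synthesis. Each of 11688 genes outside the 8 was correlated over the 15 animals with the mean of their standardised values, and the median r was -0.04. The 10 closest included FADS1 (r = 0.90), MSMO1 (0.89), SLCO4A1 (0.86), POLR3F (0.81), LSS (0.81), FRAS1 (0.80), C4BPA (0.79), GMPS (0.79) and KCNJ2 (0.78). With slide and group means removed, 5 of the 10 remained among the 10 closest and all 10 among the 100 closest.

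FADS1 is a desaturase of long-chain polyunsaturated fatty acids. Its level ran from 0.82 (control 4) to 1.33 (control 7) in controls, with a median of 1.03, and from 0.49 (prednisolone 8) to 1.41 (prednisolone 4) in treated animals. Its lowest control and both of its treated extremes were the same animals as for the mean of the 8 genes. This is no separate evidence, since FADS1 was picked by its r with that mean over these animals. Its difference between groups was 0.04 (limma adjusted p = 0.972).

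MSMO1 removes methyl groups from sterol intermediates. It ranged from 0.96 to 1.58 in controls and from 0.69 (prednisolone 8) to 1.60 (prednisolone 4) in treated animals, with a difference of 0.04 (limma adjusted p = 0.966). Like FADS1, it did not separate the groups.

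FADS1 and MSMO1 stayed close to the mean of the 8 genes in fewer animals. In the 9 animals without liver or protamine transcripts, r was 0.91 for MSMO1 and 0.82 for FADS1. High r was commoner in that smaller set. Of 11696 genes, 1357 had r of at least 0.5 in the 9 animals, against 647 over 15. With slide and group means removed over 15 animals it was 0.95 and 0.90. C4BPA, a complement inhibitor made mainly in liver and above background on 12 arrays, went from 0.79 to 0.35 in the 9 animals.

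The most opposite genes were MAL (r = -0.84), a membrane raft protein of T cells, FZD5 (-0.84), a Wnt receptor above background on 7 arrays, and ZNF652 (-0.84), a zinc finger protein above background on 11. None of these 3 genes differed between the groups in limma (adjusted p = 0.980, 0.981 and 0.914).

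**Figure D4:**
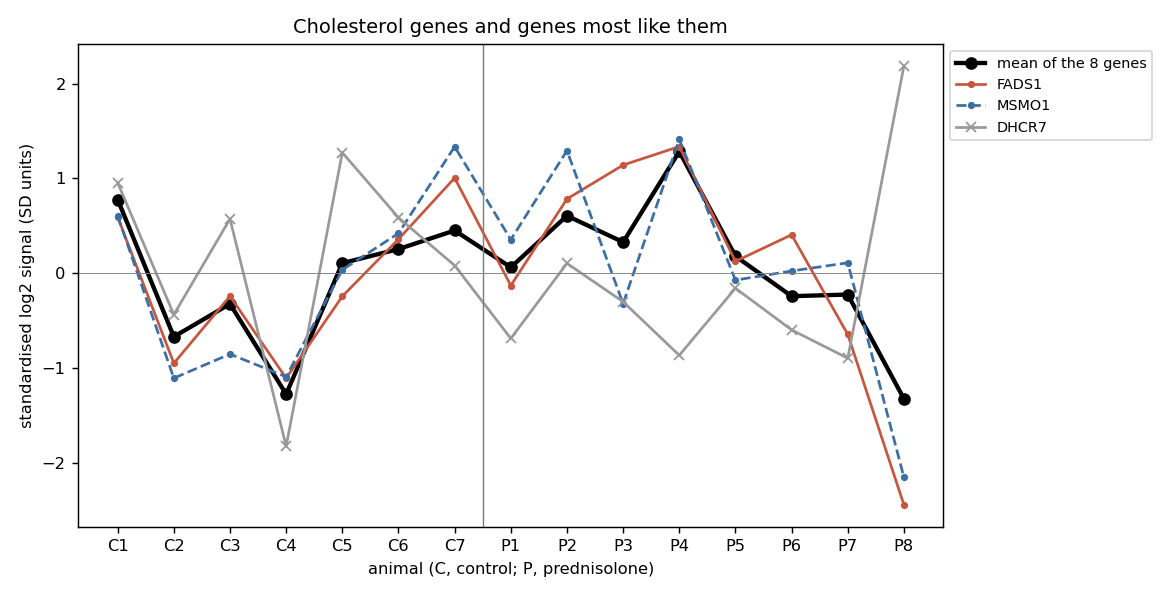
Standardised log2 level (in SD units) by animal for the mean of the 8 genes, the closely similar FADS1 and MSMO1, and DHCR7, with controls left of the vertical line. The mean of the 8 is lowest in prednisolone 8 (-1.32) and control 4 (-1.27) and highest in prednisolone 4 (1.28), while DHCR7 is highest in prednisolone 8.

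The rest of the synthesis pathway was mixed. Of 16 further enzymes 15 were measured, with a median r of 0.34 with the mean of the 8 genes (0.18 in the 9 animals without liver or protamine transcripts), and over 15 animals 5 had r of at least 0.5, against 5.53% of all genes. Besides MSMO1 these included LSS, lanosterol synthase (0.81), and SC5D, a desaturase just before DHCR7 (0.73). A second probe of LSS had r = 0.00. In the 9 animals without liver or protamine transcripts LSS had r = 0.65 and SC5D 0.88.

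Some enzymes had a negative r: EBP, a sterol isomerase, at -0.53 (-0.68 in the 9 animals), and TM7SF2, a sterol reductase, at -0.51 (-0.64 in the 9 but -0.05 without the protamine animals). MVK, mevalonate kinase, had r = -0.40, and 0.13 without the protamine animals. With prednisolone, 6 of the 15 enzymes were higher and 9 lower, with a median difference of -0.02, and 0 were called. The smallest unadjusted p belonged to LBR, a nuclear membrane protein with sterol reductase activity, at 0.15 ± 0.07 (SE; limma adjusted p = 0.700), and to ACAT2, which joins acetyl-CoA units, at -0.17 ± 0.12 (SE; limma adjusted p = 0.808).

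Uptake and transport genes, 9 of 12 measured, had a median r of -0.32 with the mean of the 8 genes, and of -0.10 in the 9 animals without liver or protamine transcripts. LRP1, a large endocytic receptor, had r = -0.64 over 15 animals but -0.22 without the protamine animals and -0.13 in the 9. It had r = -0.84 with slide and group means removed over 15 animals, and -0.55 without prednisolone 4 and 8. LIPA, the lysosomal lipase that frees cholesterol from its esters, had r = -0.51 over 15 animals and -0.59 in the 9, but -0.09 without prednisolone 4 and 8. In the group comparison 4 were higher and 5 lower, with a median of -0.0022 and 0 called. LRP1 at 0.29 ± 0.17 and VLDLR, the VLDL receptor, at 0.18 ± 0.11 (SE) had the smallest p, with limma adjusted p of 0.752 and 0.755.

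Of the genes that control SREBP processing, 9 of 10 were measured. The 9 had a median r of 0.20 with the mean of the 8 genes, and 8 of them were positive. That median was 0.48 in the 9 animals without liver or protamine transcripts and 0.12 without prednisolone 4 and 8. SREBF1, which encodes the related factor SREBP1, had r = 0.64, 0.86 in the 9 animals and 0.49 without prednisolone 4 and 8. INSIG2, the negative gene, had r = -0.24. It was at -0.93 without the protamine animals, -0.85 in the 9 and 0.06 without prednisolone 4 and 8. ERLIN2, an endoplasmic reticulum protein that takes part in protein degradation, had r = 0.56, and 0.31 without prednisolone 4 and 8. In the group comparison 7 were higher and 2 lower (median 0.05) and 0 were called. ERLIN2 was at 0.14 ± 0.10 (SE; limma adjusted p = 0.792).

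Genes of efflux, esterification and oxysterols, 8 of 13 measured, had a median r of -0.34 over 15 animals. That median did not hold under other choices: it was -0.05 with slide and group means removed, -0.11 without the protamine animals, -0.12 without prednisolone 4 and 8 and 0.05 in the 9 animals. APOE, the lipoprotein component that carries cholesterol out of macrophages, had the lowest r of the list at -0.76, and -0.69 in the 9. It was highest in control 4 (5.84), followed by prednisolone 8 (5.50), and lowest in prednisolone 4 (4.81). CYP27A1, which makes 27-hydroxycholesterol, had r = -0.60, and -0.15 in the 9 animals without liver or protamine transcripts. NR1H2, the sterol receptor LXR beta, had r = -0.59, and -0.77 in the 9.

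In the group comparison 5 of these 8 genes were higher and 3 lower (median 0.06) with 0 called. That count includes ABCA1. With only probes above background on all arrays, 4 of 7 were higher, with a median of 0.04. The probe of ABCA1, the cholesterol exporter, cleared background on 2 of the 7 control arrays and 7 of the 8 treated ones, so that it passed the filter mainly through treated animals. Its measured means were -5.77 ± 0.55 (SD, n = 7) and -5.12 ± 0.63 (SD, n = 8), and no difference is read from them. CH25H, which makes 25-hydroxycholesterol, was at 0.22 ± 0.16 (SE; limma adjusted p = 0.815).

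Fatty acid synthesis, the main domain of SREBP1, did not follow the 8 genes as a list. Of 14 genes 13 were measured, 12 of them on every array after spots were dropped, and the median r was 0.06. FADS1 and FADS2, a desaturase of the same route (0.77), were the only members at 0.5 or more, while FASN, fatty acid synthase, had r of 0.0032 and ACACA, acetyl-CoA carboxylase, -0.38. In the group comparison 10 were higher and 3 lower with a median of 0.12, and 0 were called. The 10 include THRSP, above background on 2 of the 7 control arrays and 7 of the 8 treated ones. With only probes above background on all arrays, 8 of 9 were higher, with a median of 0.12. With normexp background correction the median over the 13 genes was 0.03, beside -0.21 over all probes. MLXIPL, a glucose-responsive factor, at 0.40 ± 0.16 and ACSS2, which activates acetate, at 0.18 ± 0.09 (SE) had limma adjusted p of 0.677 and 0.701. The probe of MLXIPL was dim, with means of -5.53 in controls and -5.12 in treated animals, and was above background on 14 arrays. With slide as a fixed block the difference of MLXIPL was 0.19.

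The non-sterol branch, which leads from FDPS to dolichol, ubiquinone and prenyl groups, had 7 of 10 genes measured and none with r of at least 0.5. DHDDS, which makes dolichol precursors, had the smallest p of all 6 lists, with a difference of 0.28 ± 0.09 (SE; limma adjusted p = 0.560). RABGGTA, which attaches prenyl groups to Rab proteins, was at -0.30 ± 0.13 (SE; limma adjusted p = 0.700). Counted together, 3 genes were higher and 4 lower, with a median of -0.06 and 0 called.

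**Figure D5:**
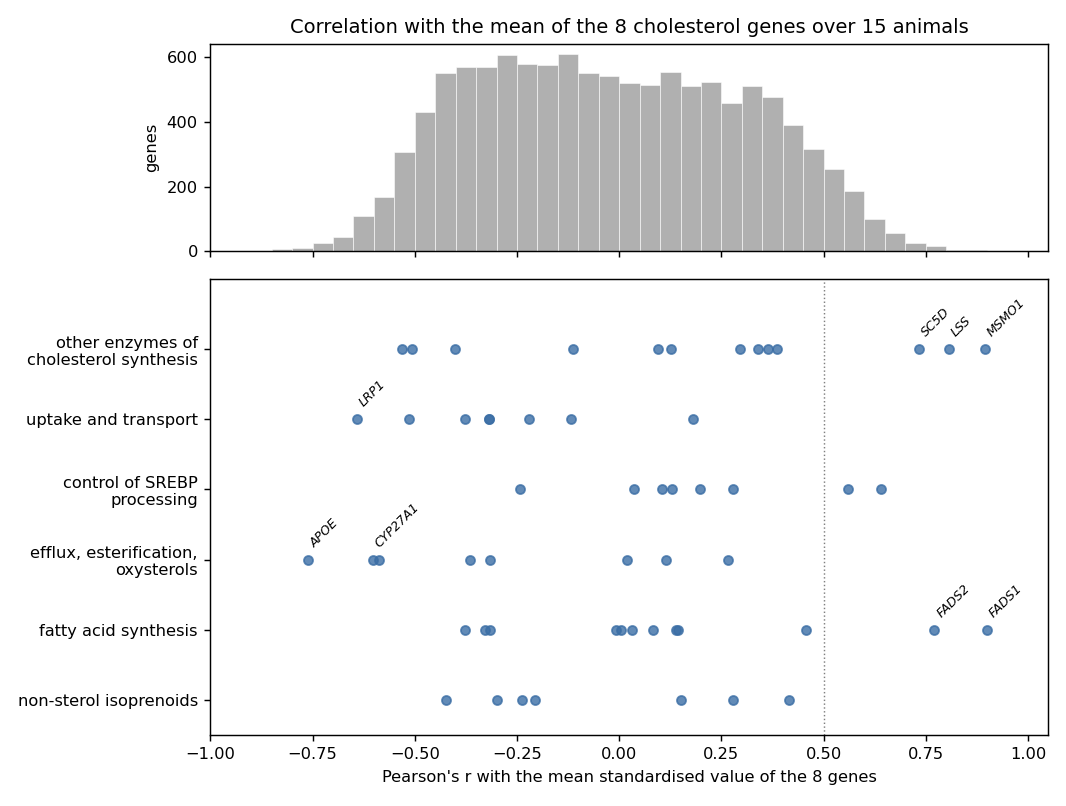
Pearson's r with the mean standardised value of the 8 genes over 15 animals. The top panel counts all genes in bins of r, and each point below is 1 gene reported here of 6 lists, with the dotted line at 0.5. MSMO1 and FADS1 lie near 0.9, while APOE (-0.76) and LRP1 (-0.64) lie at the opposite side.

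Some marker lists of other cells were correlated with the mean of the 8 genes. The mean of the adipocyte markers had r = -0.54 (rho = -0.60) with it over the 15 animals. Of 10 such markers 7 were measured (not ADIPOQ, PLIN4 and LEP), and log2 of their summed signal lay between 1.83 and 3.29 in controls and between 1.91 and 3.94 in treated animals. The median r of the 7 was -0.40, and 1 of them, CIDEA, was positive (0.19). That median was -0.51 without the animals with liver transcripts and -0.19 without those with protamine transcripts. In the 9 animals without either it was -0.30. The mean of the thymic epithelium markers, 9 of 9 measured, had r = 0.51 (rho = 0.32). Of these 9 genes 1 reached 0.5, PSMB11, a proteasome subunit of the thymic cortex, at 0.76, and the median over the 9 was 0.14. Their summed signal lay between 6.61 and 6.96 in controls and between 6.52 and 6.85 in treated animals. These marker correlations are descriptions, and their part in the co-variation was not tested.

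The other lists were weaker in the values as they stand. Their r was -0.08 for thymocytes, 0.34 for dividing cells, -0.37 for macrophages, -0.38 for erythroid cells, 0.29 for B cells and 0.09 for skeletal muscle. With slide and group means removed that order did not hold. B cells then had r = 0.56 and thymocytes -0.47, beside 0.53 for thymic epithelium and -0.52 for adipocytes. The remaining lists then lay between -0.30 and 0.32. The liver list had r = 0.43, and -0.03 without slide 4, which holds prednisolone 4.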

How the data were processed

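Groups follow the treatment label. Replicate numbers follow the order of the samples and pair nothing. The scanner files hold spot intensity made with Feature Extraction 9.5.1.1, background-subtracted and detrended across the array, per the file headers. Other columns used are the deposited flags for well above background, saturated and outlier spots, set by the scanner software. A deposited table by the authors gives linear intensity per spot, whose columns had medians from 185 to 271 and a rank correlation of at least 0.99962 with the scanner signal. Its direction is that of the signal, and how it was centred is not known. R 2.11.1 is named in the submitters' processing notes.

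Processed signals were taken to log2 and set relative to the 75th percentile of the array's bovine spots, outlier spots were dropped (1 spot of HMGCS1 among the 8 genes), and the spots of a probe were averaged. A filter kept the 16069 probes that were above background on 7 or more of the 15 arrays. Of these 1 could not be tested, and 67 had a missing value on some array. A gene with several probes was represented by the brightest. Groups were compared with limma 3.58.1 (lmFit and eBayes) in R 4.3.3, with Benjamini-Hochberg adjustment over the 16068 probes tested. The fit was tested on simulated data. Correlations used 100000 permutations, two-sided, or exact enumeration within groups. Permutation p can be no smaller than 1e-05.

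Symbols came from gene number, accession, gene name or description, matched to a table of cattle genes (ARS-UCD2.0), for 16410 of 21475 probes. Where only a description was given, the name is that of a similar human gene. The 8 genes and all lists were chosen with earlier results of these data known. Genes were named by rule: all 8 members, from each pathway list any gene called or else the 2 with the smallest p, and the 10 genes most and 3 least like the mean of the 8. Some genes that the rule names are not reported here, and counts over lists include them. Other genes named with their r were chosen after their values were seen. Alternatives were other normalizations, filters and probe choices, slide as a block, and animals left out. Leaving out animals with liver or protamine transcripts, and prednisolone 4 and 8, was added after the data were seen. Probe sequences and genome positions were not used here.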

Additional observations from a re-analysis of the deposited data

Results flagged for a closer look

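DHCR7 in prednisolone 8 lay at 1.87, far from the other 7 treated animals, the nearest of which was at 1.60, with a group median of 1.52. The gap took 0.675 of the group's range, above Dixon's 95% critical value of 0.526 for 8 samples. This was 1 of 40 groups of values examined in this way, and chance flags about 5% of groups. Prednisolone 8 is 1 of the 4 animals with a high PRM1 signal (1.57), and the part of that in the DHCR7 value was not tested.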

How the results depend on the processing

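None of the 8 genes was called under any of the 31 alternatives, and the smallest adjusted p of any of them was 0.313 (SREBF2). The median difference of the 8 genes lay between -0.027 (without slide 4) and 0.17. Small differences changed sign: with normexp background correction, which moved the median of all probes to -0.21, DHCR7 was 0.058 and FDPS 0.13; with outlier spots kept HMGCS1 was -0.0023; with slide as a fixed block SQLE was -0.00078 and FDFT1 -0.0037. Without slide 4 HMGCS1 was -0.0063, SQLE -0.10, IDI1 -0.077 and FDFT1 -0.043. Without the animals with liver transcripts HMGCS1 was -0.045, FDFT1 -0.024 and SREBF2 -0.049, and without those with liver or protamine transcripts HMGCS1 was -0.0068. Leaving out each animal in turn gave HMGCS1 -0.048 to 0.079, FDFT1 -0.0042 to 0.11, SREBF2 -0.0045 to 0.12 and FDPS -0.095 to 0.021. The causes were not tested. INSIG1 was above 0 under all 31. Over the array, quantile normalization called 1 probe and leaving out each animal 0 to 3, with 3 without prednisolone 1. Among the lists, the median of uptake and transport was 0.11 with normexp and that of non-sterol isoprenoids 0.16 without slide 4.

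The median r of the 28 pairs stayed between 0.35 and 0.74 except in the 9 animals without liver or protamine transcripts, where it was 0.10. The number of pairs that passed was less stable: 21 with median centring, 8 with Spearman's rho, 8 with outlier spots kept, 6 without the animals with liver transcripts, 0 without those with protamine transcripts, 2 without prednisolone 4 and 8, and 6 to 18 with each animal left out. Fewer animals also leave less power. No paired analysis was possible because the labels give no replicate numbers that the groups share.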
